A study of Mus musculus with 10 samples.

Results

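The enzymes that methylate arsenic and turn over its methyl donor, S-adenosylmethionine (SAM), were read with 11 probe sets of 9 genes, out of 45101 probe sets for 18193 named genes on the array. The members are 10 named genes: As3mt, Gsto1, Gsto2, Ahcy, Pnp, Mat2a, Mat2b, Mtr, Bhmt and Gnmt. Each probe set whose single gene symbol in the platform annotation is one of these names was taken. Gsto1 and Mtr had 2 probe sets each, the other 7 genes had 1, and Mat2a was not analysed here. Each Affymetrix Mouse430_2 array held lung RNA from 1 female mouse of the inbred strain C57BL/6, with no genetic modification stated. The 5 exposed mice drank water with 50 ppm arsenic for 12 weeks from 8 weeks of age, and the 5 controls drank deionized water over that time. The compound is arsenate in the series text and arsenite in the sample fields, so it is called arsenic here. The treatment field of control 4 gives no dose, so its group rests on its title. A number in the titles whose meaning is not stated is the same for all exposed animals and differs from that of all controls, and what it marks cannot be told apart from the exposure. Values are on a log2 scale, on which 1 unit is a doubling of the signal, and the number of arrays limits their precision.

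Inorganic arsenic is cleared largely by methylation. Arsenate must first be reduced to arsenite, which thiols can do and which phosphorolytic enzymes such as purine nucleoside phosphorylase (Pnp) can promote. Arsenite methyltransferase (As3mt) then moves methyl groups from SAM to trivalent arsenic, and the omega-class glutathione transferases (Gsto1, Gsto2) reduce the pentavalent methylated forms. SAM is made from methionine and ATP by methionine adenosyltransferase, whose catalytic subunit outside liver is Mat2a and whose regulatory subunit is Mat2b. Each methyl transfer leaves S-adenosylhomocysteine, which inhibits methyltransferases until Ahcy hydrolyses it to homocysteine. Homocysteine becomes methionine again through the cobalamin-dependent Mtr or, chiefly in liver and kidney, the betaine-dependent Bhmt, and Gnmt uses up surplus SAM by methylating glycine.

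No member passed the test in exposed lungs. The values of Ahcy and Gnmt lay higher in each exposed animal than in any control, as did those of 2.18% of all probe sets past the filter. Gnmt was 1.66-fold higher (95% confidence interval 1.23 to 2.23) and Ahcy 1.24-fold higher (1.07 to 1.43). As3mt was 1.15-fold higher (0.977 to 1.36). Gsto1 had close group means but ranged over 3.77-fold among the 10 animals on its probe set 1416531_at, and it did so in step with adipocyte markers.

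Array medians were 4.19 to 4.26 in controls and 4.11 to 4.23 with arsenic, and correlations between arrays were 0.990 to 0.997 over probe sets. Of the 11 member probe sets, 8 passed a filter on dim signal (above 4.198, the middle value of the table, on 5 or more arrays), and these 8 lay above it on all 10 arrays. The probe sets of Gsto2 and Bhmt and the second one of Mtr lay below it on all 10. With limma, which tests each probe set with a spread moderated over all of them, 0 of the 8 had a Benjamini-Hochberg adjusted p under 0.05. Over all 22495 probe sets past the filter 0.44% did, 59 higher and 40 lower with arsenic. At an unadjusted p of 0.05 there were 3 of the 8 (Gnmt, Ahcy and Pnp), against 17.2% of all probe sets. In 2 of the 8, Ahcy and Gnmt, all 5 arsenic values exceeded all 5 control values, as they did in 2.18% of all probe sets. All 8 differences were positive, as were 55.3% of all, and their median was 0.18, beside 0.026 over all. The 8 include both Gsto1 sets. With 1 probe set per gene, 63.2% of all 11332 genes past the filter had a positive difference, and the median was 0.057.

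**Figure D1:**
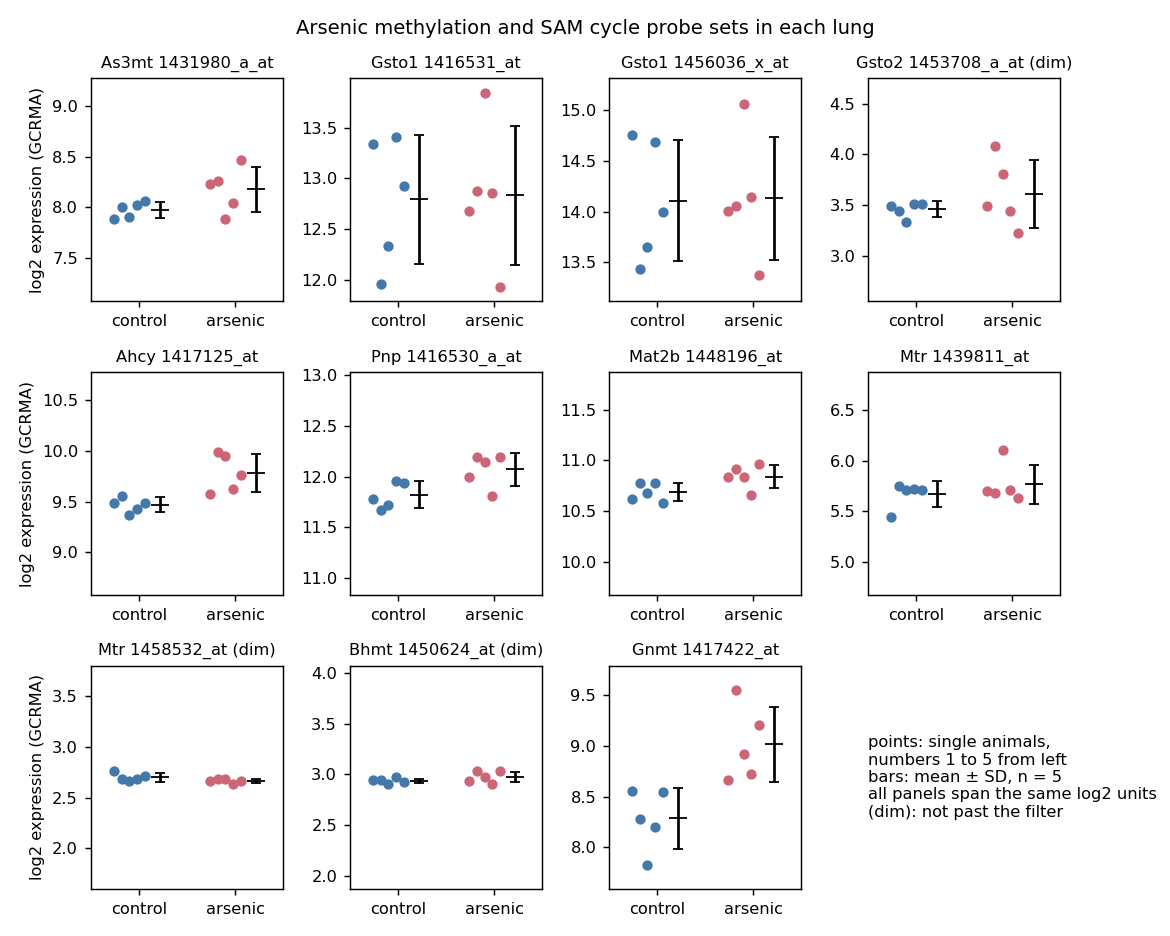
Log2 expression (vertical axes, each spanning the same number of log2 units) of the 11 member probe sets in control (blue) and arsenic-exposed (red) lungs; points are single animals and bars the mean ± SD, n = 5 per group. The groups are separated for Ahcy and Gnmt and overlap in the other panels, and the widest scatter within a group is that of both Gsto1 probe sets.

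As3mt, Gsto1 and Gsto2 lie on chromosome 19 (GRCm38.p6). As3mt spans 46707157 to 46741099, Gsto1 starts 1114 kb after its end, at 47854973, and Gsto2 starts 647 bases after the end of Gsto1. Ahcy lies on chromosome 2 (155059310 to 155074497) and Gnmt on chromosome 17 (46725664 to 46729211). The 250 bases before the start used for each window are given below for As3mt, the methyltransferase itself, and for Ahcy and Gnmt, whose groups were separated. They are also given for Gsto1, whose level varied most. The windows of Ahcy and Gsto1 adjoin the gene positions given above. The As3mt window lies wholly inside the As3mt span given above, so by those positions it is not upstream sequence. The Gnmt window lies partly inside the Gnmt span. The sequences are those of RefSeq, GRCm38.p6, written 5′ to 3′ on the gene's strand; 10 of the 10 member symbols were found there. They were searched on both strands for the antioxidant response element core TGACNNNGC, the xenobiotic response element core GCGTG, the E-box CACGTG, the GC box GGGCGG and the CCAAT box CCAAT, and matches are in capitals.
As3mt (chr19:46707208-46707457, plus strand): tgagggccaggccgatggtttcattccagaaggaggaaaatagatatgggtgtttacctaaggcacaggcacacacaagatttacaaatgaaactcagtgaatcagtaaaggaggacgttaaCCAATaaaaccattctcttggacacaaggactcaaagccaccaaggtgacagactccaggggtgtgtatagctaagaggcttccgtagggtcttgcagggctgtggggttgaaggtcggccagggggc
Ahcy (chr2:155074498-155074747, minus strand): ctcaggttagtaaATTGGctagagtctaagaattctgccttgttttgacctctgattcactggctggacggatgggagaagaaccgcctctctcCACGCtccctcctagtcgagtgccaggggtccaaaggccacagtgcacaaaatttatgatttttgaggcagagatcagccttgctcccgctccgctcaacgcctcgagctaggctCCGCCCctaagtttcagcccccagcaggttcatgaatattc
Gnmt (chr17:46729166-46729415, minus strand): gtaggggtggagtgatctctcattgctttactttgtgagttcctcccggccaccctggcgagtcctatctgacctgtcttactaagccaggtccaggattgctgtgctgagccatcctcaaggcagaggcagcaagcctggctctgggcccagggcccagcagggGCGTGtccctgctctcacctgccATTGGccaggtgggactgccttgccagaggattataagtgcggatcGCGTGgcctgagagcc
Gsto1 (chr19:47854723-47854972, plus strand): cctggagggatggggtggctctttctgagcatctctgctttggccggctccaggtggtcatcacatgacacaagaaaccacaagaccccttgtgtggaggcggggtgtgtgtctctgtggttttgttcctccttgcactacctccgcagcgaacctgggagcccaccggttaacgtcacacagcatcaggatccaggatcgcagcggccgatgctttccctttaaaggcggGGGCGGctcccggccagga

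In these windows As3mt had 1 CCAAT box, inside the As3mt gene span, and no other match. Gsto1 had 1 GC box and no other. Ahcy had 1 CCAAT box, 1 xenobiotic element core and 1 GC box. Gnmt had 1 CCAAT box and 2 xenobiotic element cores, which start 85 and 16 bases before the start used for its window. The core at 16 bases lies inside the gene span given above, and the one at 85 bases lies outside it. None of the 4 held the antioxidant element core or the E-box, which 10.2% and 6.02% of 32851 promoter windows of the same length held. The xenobiotic element core was in 28.2%, the GC box in 32.7% and the CCAAT box in 33.8% of them. A match is a run of letters and does not show binding.

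The log2 level of As3mt was 7.88, 8.0, 7.90, 8.02 and 8.06 in controls 1 to 5 and at 8.23, 8.26, 7.88, 8.04 and 8.47 in exposed animals 1 to 5. The control values were tight, whereas exposed animal 3 was level with the lowest control and exposed animal 5 was the highest of all, so the groups overlapped. The means were 7.97 ± 0.08 and 8.18 ± 0.22 (SD, n = 5 each), a log2 difference of 0.20 (SE 0.11, limma adjusted p = 0.345). Without exposed animal 5 the difference was 0.13, and over the fits that left out 1 animal it ran to 0.28, without exposed animal 3.

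The genes whose deviations from their group means followed those of As3mt most closely over the 10 arrays, among 19489 probe sets of other genes, were the vesicle SNARE gene Vamp3 (Pearson r = 0.976, Spearman rho = 0.891), Sike1 (0.973 and 0.842) and the hyaluronan receptor Cd44 (0.970 and 0.830). For Ahcy they were Fbxo44 (0.975 and 0.988), Kctd1 (0.954 and 0.964) and Fam83h (0.952 and 0.879). These are the highest of many correlations over few animals and are given as a description. None of these 6 genes passed the test between the groups.

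The omega-class glutathione transferase Gsto1 was measured by 1416531_at and by 1456036_x_at, whose suffix marks a set with some probes shared with other sequences. On 1416531_at the controls 1 to 5 had 13.34, 11.96, 12.33, 13.41 and 12.92, and the exposed animals 1 to 5 had 12.68, 12.87, 13.84, 12.85 and 11.93. The highest and the lowest value both belonged to exposed animals, 3 and 5, and the groups overlapped fully. Its log2 difference was 0.04 (SE 0.37, 95% confidence interval -0.77 to 0.85, limma adjusted p = 0.960), so changes of up to 1.80-fold upwards lay within the interval. The other set, at 14.76, 13.43, 13.65, 14.69 and 14.00 in controls and 14.01, 14.06, 15.06, 14.14 and 13.37 with arsenic, had a difference of 0.02 (SE 0.33). The 2 sets read the same RNA, and their values over the 10 arrays correlated at r = 0.982 (rho = 0.903). The sign of the difference was set by single animals: on 1416531_at it was -0.17 without control 2, -0.07 without control 3 and -0.21 without exposed animal 3, and on 1456036_x_at -0.14, -0.09 and -0.21, with -0.0035 without control 5.

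The level of 8 adipocyte marker genes, averaged per lung, was 6.11, 4.36, 4.99, 6.06 and 5.40 in controls 1 to 5 and 5.24, 5.30, 6.92, 5.29 and 4.32 in exposed animals 1 to 5. Lungs high in these markers were high in Gsto1: over the 10 animals r was 0.984 and rho 0.988 for 1416531_at (permutation p = 2e-05 and 1e-05, the latter the smallest that 100000 resamples can give). Both p-values were 0.00064 after Benjamini-Hochberg adjustment over 64 relations, 8 probe sets against 8 marker lists. For 1456036_x_at r was 0.981 and rho 0.915 (adjusted permutation p = 0.00064 and 0.018). Without exposed animals 3 and 5, the farthest from the median marker level, r was 0.979 and 0.974, and after subtracting the group means it was 0.984 and 0.981. In whole tissue, more cells of a type and more RNA per cell cannot be told apart.

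Adipoq, the adipokine gene that defines the marker list, spanned 1.93 in control 2 to 11.27 in exposed animal 3. The marker level itself did not differ detectably between the groups (log2 difference 0.03, two-sided exact permutation p = 0.921). Cardiac muscle markers (8 genes) moved with Gsto1 as well, with r of 0.874 and 0.827 (adjusted permutation p = 0.013 and 0.033; for rho 0.058 and 0.060), as did liver markers (16 genes, 0.879 and 0.823; 0.017 and 0.034; for rho 0.076 and 0.12). Endothelial markers (8 genes) ran opposite, at -0.825 and -0.801 (adjusted permutation p = 0.033 and 0.048; for rho 0.095 and 0.25). Without the 2 animals farthest from the median of each level, r on the 2 Gsto1 sets was 0.711 and 0.676 for cardiac muscle, 0.796 and 0.670 for liver, and -0.918 and -0.875 for endothelium. Only 3 of the liver markers passed the filter, Fabp1, Fgg and Cyp2e1. Cyp2e1, which adipocytes also make, ran from 7.79 in exposed animal 5 to 11.33 in exposed animal 3, and albumin (Alb) was at 2.20 to 2.74 in 9 lungs and at 4.55 in control 4. In a fit that included the adipocyte level, likewise added once the data had been seen, the standard error of the Gsto1 difference on 1416531_at went from 0.37 to 0.088 and the difference was 0.02. As3mt had r = -0.694 with the cardiac muscle level and -0.569 with the adipocyte level (adjusted permutation p = 0.16 and 0.37). After subtracting the group means r was -0.728 and -0.702. Without the 2 animals farthest from each median it was -0.702 and -0.138. The As3mt difference was 0.21 (SE 0.089) in the fit with the adipocyte level.

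**Figure D2:**
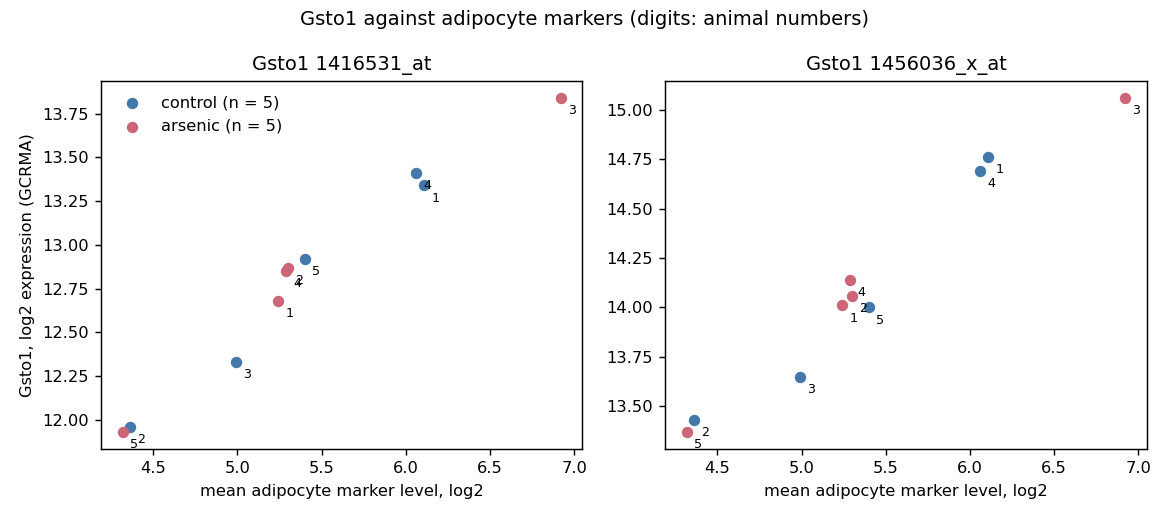
Log2 expression of Gsto1 (vertical axes) on its 2 probe sets against the mean log2 level of 8 adipocyte markers (horizontal axes) in each lung; blue points are controls, red points arsenic-exposed animals and digits the animal numbers. Both groups lie along 1 line (r = 0.984 and 0.981), from exposed animal 5 and control 2 at the bottom to exposed animal 3 at the top.

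Gsto2, the neighbouring paralog, was dim. Controls had 3.49, 3.44, 3.33, 3.51 and 3.51, and exposed animals 3.49, 4.08, 3.80, 3.44 and 3.22. Exposed animal 2 was highest and exposed animal 5 lowest, and the groups overlapped. In the fit without a filter its difference was 0.15 (SE 0.14, limma adjusted p = 0.563), and 0.03 without exposed animal 2. GCRMA presses dim signals towards a floor, so fold changes at this level are understated.

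Pnp, which splits purine nucleosides with phosphate, or with arsenate in its place, was at 11.78, 11.67, 11.72, 11.96 and 11.94 in the 5 controls and 12.00, 12.19, 12.14, 11.81 and 12.19 in the exposed animals. Of the exposed animals only number 4 fell within the control range. The means were 11.82 ± 0.13 and 12.07 ± 0.16 (SD, n = 5 each), and the log2 difference was 0.25 (SE 0.10, limma unadjusted p = 0.0273, adjusted p = 0.242). Pnp moved with the level of 7 macrophage markers over the 10 lungs (r = 0.910, rho = 0.867, adjusted permutation p = 0.013 and 0.038; r = 0.866 without controls 1 and 2, and 0.868 after subtracting the group means). That level was 9.18 to 9.59 in controls and 9.31 to 9.77 with arsenic, all 7 markers being past the filter (two-sided exact permutation p = 0.0873). A fit that included this level, added once the data had been seen, gave a Pnp difference of 0.091 (SE 0.086).

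Ahcy, the hydrolase that removes S-adenosylhomocysteine, was at 9.49, 9.56, 9.37, 9.43 and 9.49 in controls 1 to 5 and at 9.58, 9.99, 9.95, 9.62 and 9.76 in exposed animals 1 to 5. Exposed animals 2 and 3 stood clear of the controls, while exposed animal 1 lay only 0.014 above control 2. The means were 9.47 ± 0.07 and 9.78 ± 0.19 (SD, n = 5 each), a log2 difference of 0.31 (SE 0.10, 95% confidence interval 0.098 to 0.52). It did not pass over all probe sets (limma unadjusted p = 0.00823, adjusted p = 0.177). Leaving out 1 animal gave 0.26 to 0.36 with adjusted p from 0.113 to 0.369.

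Gnmt, the SAM-consuming glycine methyltransferase, had the largest difference of the 11 member probe sets. Controls 1 to 5 were at 8.56, 8.28, 7.83, 8.20 and 8.55, and exposed animals 1 to 5 at 8.66, 9.55, 8.92, 8.72 and 9.21. Exposed animals 2 and 5 were highest and control 3 lowest, and the groups were 0.10 apart at their nearest values. The means were 8.28 ± 0.30 and 9.02 ± 0.37 (SD, n = 5 each), and the log2 difference was 0.73 (SE 0.19, 95% confidence interval 0.30 to 1.16). It did not pass over all probe sets (limma unadjusted p = 0.00324, adjusted p = 0.140). Leaving out 1 animal gave 0.60 to 0.82, with the lowest adjusted p, 0.0981, without exposed animal 4.

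Liver and kidney are rich in Gnmt, and kidney marker genes gave signal in most of these lungs; where it came from was not tested. The mean level of 21 kidney markers was 3.33 to 4.76 in controls and 4.32 to 5.60 with arsenic, with 9 of the 21 past the filter (two-sided exact permutation p = 0.0714). The kidney androgen-regulated gene Kap ran from 2.26 in control 1 to 13.40 in exposed animal 4, and Umod, which defines the loop of Henle, from 3.45 to 10.73 in the same animals. Control 1 was below the filter for both genes, and the other 9 lungs lay at 9.21 or above for Kap and at 6.14 or above for Umod. Exposed animal 4, the highest in kidney markers, was the second lowest exposed animal for Gnmt. Over the 10 lungs Gnmt and the kidney level had r = 0.142 and rho = 0.152 (permutation p = 0.71 and 0.68). Ahcy and the kidney level had r = 0.210. After subtracting the group means, r with the kidney level was -0.572 for Gnmt and -0.448 for Ahcy. A fit that included the kidney level gave differences of 0.97 for Gnmt and 0.39 for Ahcy. What kidney RNA added to either gene was not tested. The liver level was 3.23 to 3.72 in controls and 3.18 to 3.68 with arsenic. Gnmt and Ahcy had r = 0.633 and 0.685 with the macrophage level (adjusted permutation p = 0.24 and 0.16). After subtracting the group means these were 0.368 and 0.467. Fits that included the macrophage level gave 0.58 for Gnmt (SE 0.23) and 0.23 for Ahcy (SE 0.11).

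**Figure D3:**
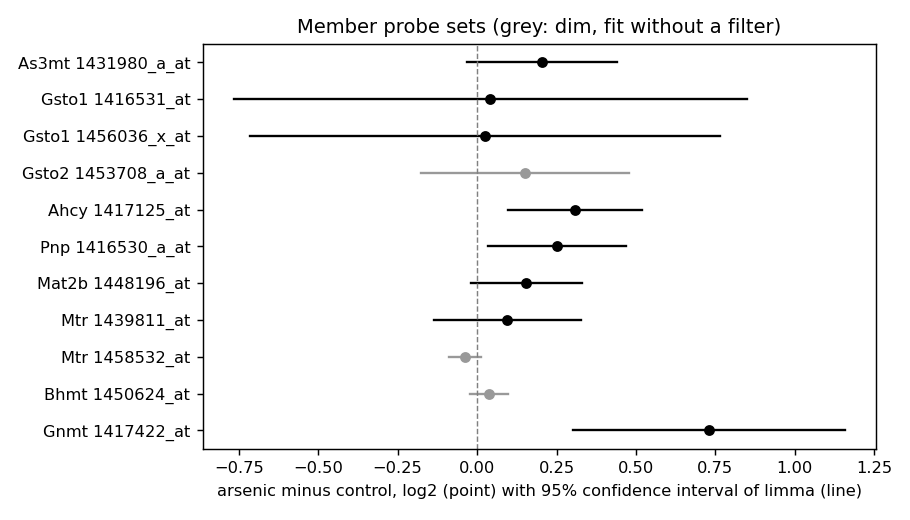
Log2 difference, arsenic minus control, of each member probe set (points) with limma's 95% confidence interval (lines); grey marks the dim probe sets, taken from the fit without a filter. The intervals of Gnmt, Ahcy and Pnp lie above 0, those of the others include it, and the Gsto1 intervals are the widest (-0.77 to 0.85 and -0.72 to 0.76).

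Mat2b, the regulatory subunit of the SAM-making enzyme, was at 10.62, 10.78, 10.68, 10.78 and 10.58 in the controls and 10.84, 10.91, 10.84, 10.66 and 10.96 in the exposed animals. All exposed animals except number 4 exceeded every control. The difference was 0.16 (SE 0.08, limma adjusted p = 0.336), and its 95% confidence interval ran from 0.986-fold to 1.26-fold.

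The methionine synthase gene Mtr was at 5.44, 5.75, 5.71, 5.72 and 5.71 in the controls and 5.70, 5.68, 6.10, 5.71 and 5.63 in the exposed animals on 1439811_at. Control 1 was low and exposed animal 3 high, and the other 8 animals lay between 5.63 and 5.75. The difference of 0.10 (SE 0.10, limma adjusted p = 0.647) was 0.011 without exposed animal 3. The other Mtr set, 1458532_at, lay at 2.63 to 2.76 in all 10 lungs, below the filter. Bhmt, which serves the betaine route, lay at 2.91 to 3.03 in all 10 lungs, also below the filter, with a difference of 0.04 (SE 0.03).

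The genes around the members were described with 7 lists of 105 names in all, of which 93 had a probe set with 1 symbol and 77 passed the filter, with 1 probe set per gene. None of the 77 passed the limma threshold in either direction, as 0.415% of all 11332 genes did. At an unadjusted p under 0.05 there were 14 of the 77, near the 15.3% of all genes. By list these were 5 of 9 for cobalamin supply, 3 of 9 for betaine and transsulfuration, 2 of 6 for purine salvage, and 1 each of the 13, 12, 15 and 13 genes of the methionine cycle, methyltransferase, folate and arsenate reduction lists. Of the 77, 61 had a positive difference, while 63.2% of all genes had one. In 5 genes all arsenic values exceeded all control values, as in 2.82% of all genes, and in 0 they all lay below. The median difference of the 77 was 0.10, beside 0.057 over all genes.

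Among the 13 measured other genes of the methionine cycle and methionine salvage, 0 passed and 12 had a positive difference (median 0.083). Mat1a, the liver form of the SAM-making subunit, was at 6.85 ± 0.18 and 7.03 ± 0.16 in control and exposed lungs (SD, n = 5 each). The Ahcy-like genes Ahcyl1 and Ahcyl2 had differences of 0.03 (SE 0.07) and 0.0017 (SE 0.10), although another set of Ahcyl2 had -0.25. Mtrr, which keeps methionine synthase in its active state, had 0.28 (SE 0.11, adjusted p = 0.228), and Adk, which removes the adenosine that Ahcy releases, 0.08 (SE 0.08). Other Adk sets past the filter had -0.17 and 0.11. Bhmt2 was dim, at 3.36 and 3.58 on its brighter set. Of 12 small-molecule methyltransferases, which draw on the same SAM, 0 passed and 7 were positive (median 0.0085). Inmt, the indole and thioether methyltransferase that is abundant in lung, was at 15.13 ± 0.06 and 15.17 ± 0.09, near the top of the scale where differences may not show. Nnmt had -0.17 (SE 0.23), Gamt 0.01 (SE 0.12) and Tpmt 0.10 (SE 0.19).

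The betaine and transsulfuration list, of which only the transsulfuration part drains homocysteine towards cysteine and glutathione, had 9 measured genes. Of these 0 were past the threshold and all 9 positive (median 0.17). Cystathionine gamma-lyase (Cth), which releases cysteine, was at 8.78, 8.36, 8.63, 8.96 and 8.67 in the controls and 9.16, 9.78, 9.28, 9.25 and 9.11 in the exposed animals. The groups did not overlap, and the difference was 0.64 (SE 0.15, limma adjusted p = 0.104). The enzyme before it, Cbs, was dim, at 3.37 and 4.13 on its brighter set (adjusted p = 0.335 without a filter). Cdo1, the cysteine dioxygenase gene, also had separate groups, 0.30 apart in the mean (SE 0.09, adjusted p = 0.163), and is named here because of that value. The separation was barely there: controls 1 and 2 and exposed animal 1 were all at 12.05 when rounded.

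The cobalamin supply list, which is not limited to genes that provide the cofactor of Mtr, had 9 measured members. Of these 0 were past the threshold and 7 positive, with a median of 0.20. Lmbrd1 alone in this list had separate groups, but its other 2 probe sets differed in the opposite direction (-0.29 and -0.21). The rest with an unadjusted p under 0.05 were Mmachc (0.56), Cd320 (0.37), Tcn2 (0.33) and Mmaa (0.28), named because of these values. Their limma adjusted p ran from 0.150 to 0.259. Other Tcn2 sets past the filter had 0.38 to 0.49. The folate cycle, which provides the methyl group that Mtr uses, had 15 measured genes, 0 past the threshold and 12 positive (median 0.10). Aldh1l1 had 0.35 (SE 0.18), Shmt2 0.15 (SE 0.09) and Mthfd2 0.12 (SE 0.12). Of 13 genes of arsenate reduction and thiol supply 0 passed and 10 were positive (median 0.11): Txn1 had 0.18 (SE 0.11), Txnrd1 0.13 (SE 0.08), Glrx 0.07 (SE 0.11) and Gsr 0.11 (SE 0.15). Of 6 genes of purine salvage, the pathway of Pnp, 0 passed and 4 were positive (median 0.085). Xdh, the xanthine oxidoreductase further down that pathway, had separate groups (difference 0.31, SE 0.08, adjusted p = 0.126), and is named because of that value, as is Pcmt1 of the methyltransferases (0.21, SE 0.07, adjusted p = 0.195), the remaining gene with separate groups.

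**Figure D4:**
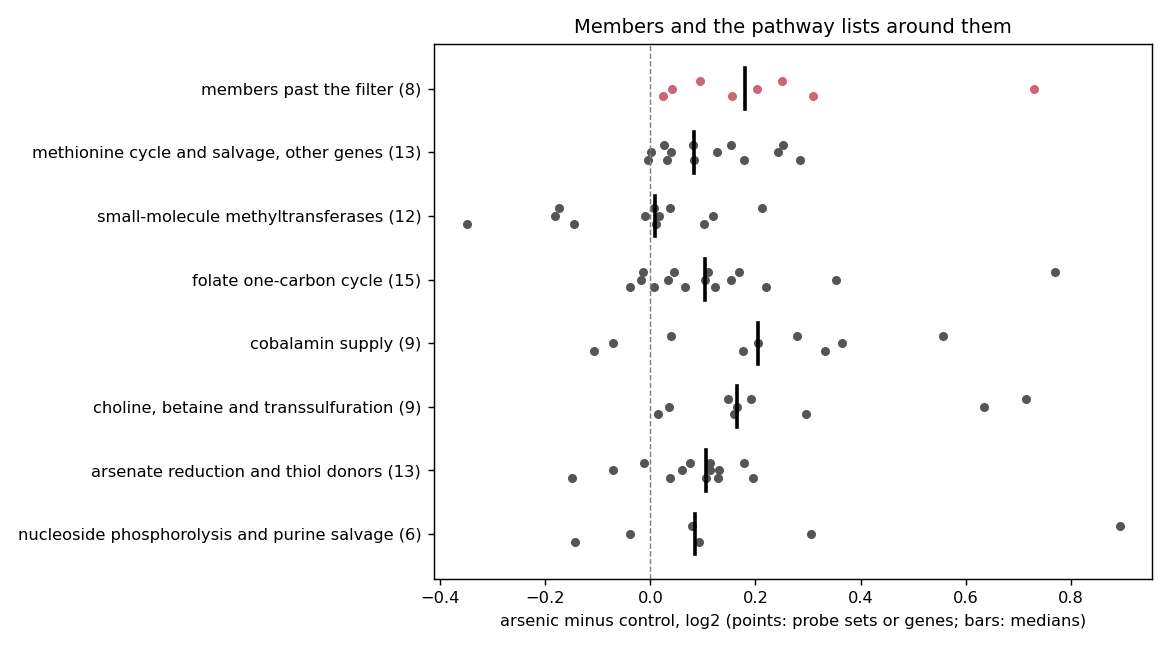
Log2 differences, arsenic minus control (horizontal axis), of the 8 member probe sets past the filter (red) and of the measured genes of 7 pathway lists (grey); vertical bars are medians and the numbers beside the names count the points. Medians run from 0.0085 for small-molecule methyltransferases to 0.20 for cobalamin supply, and the member farthest to the right is Gnmt, at 0.73.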

How the data were processed

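Per the labels' protocols, lung RNA of 10 mice, purified with Trizol and Qiagen columns, was biotin-labelled and put on Mouse430_2 arrays. The deposited values are log2 expression per probe set, made by the authors with GCRMA per the submitters' processing notes. Which version was used is not given in the sources used here, and the log2 scale was read from the range of 0.619 to 16.3. Groups came from the sample titles, and the labels give each animal its own number. Gene symbols came from the platform annotation (34958 with 1 symbol, 932 with several, 9211 not listed), and RefSeq changed 0 member symbols.

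Across all 22495 probe sets past the filter, without 64 array controls, groups were compared with lmFit and eBayes (limma 3.58.1, R 4.3.3), with no covariate, and Benjamini-Hochberg adjustment; dim members came from the same fit without a filter. Confidence intervals are limma's 95% intervals. Marker levels are means over genes, compared over all 252 splits (smallest p 0.00794), and figures used matplotlib 3.10.9. List genes are their kept probe set of highest mean; Gapdh, read by array controls alone, was left out. The text names every member probe set, a fixed set of list genes (those not given had no probe set with 1 symbol), any list gene past the threshold and the 3 genes most like As3mt and Ahcy; others are marked. Members and lists were chosen with earlier results of these data known. Data for this comparison (22495 probe sets) were also simulated, with independent normal noise at each probe set's own mean and spread. On them limma called 38 of 100 probe sets given a shift of 0.5 log2, 71 of 100 given a shift of 1, and 6 of 22295 left alone. Variation shared between probe sets was not simulated, so these counts may not hold for the real arrays.

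Alternatives were other filters, 1 probe set per gene, quantile normalization, median centring, other eBayes settings, array weights, a replicate block, marker levels as covariates, another threshold and leaving out animals.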

Additional observations from a re-analysis of the deposited data

Results flagged for a closer look

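In a group of 5, a sample was singled out where its gap to the nearest other exceeded 0.71 of the group's range. This was applied to 38 groups (11 probe sets and 8 marker levels in each group of animals), chance gives about 1 in 20, and 3 were found. On Mtr 1439811_at control 1 was at 5.44, with the other controls at 5.71 to 5.75, and exposed animal 3 was at 6.10, with the other exposed animals at 5.63 to 5.71. The kidney marker level was 5.60 in exposed animal 4 and 4.32 to 4.68 in the other exposed animals. No cause was tested.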

How the results depend on the processing

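No member probe set and no pathway gene passed the threshold under any alternative run on them, adjusted p under 0.1 included for the members. Of 236 member differences under alternatives, 223 kept their sign or stayed within the spread between replicates. Among probe sets past the filter only Gsto1 changed sign. It had -0.17 (1416531_at) and -0.15 (1456036_x_at) without arsenic animal 4 and control animal 2, a pair left out in earlier work on these data, and -0.34 and -0.24 with the macrophage level as a covariate. Leaving out 1 animal gave -0.21 to 0.27 and -0.21 to 0.21. Of the dim sets, Gsto2 had -0.0058 with the macrophage level and Mtr 1458532_at 0.02 with median centring. As3mt ran from 0.13 to 0.28 when 1 animal was left out, and from 0.19 to 0.27 under the other settings. The 0.27 came with median centring. There 5 member probe sets, and 4335 of all 22495, had a limma unadjusted p under 0.05, against 3 and 3867 in the main fit. Gnmt ran from 0.58 to 0.97 and Ahcy from 0.23 to 0.39 under those settings, and with the adipocyte and macrophage levels, chosen after seeing the data, as covariates.

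The number of all probe sets past the threshold, 99, moved more: 19 without a filter, 54 with 1 probe set per gene, 167 with array weights, 4 with the replicate block, 1 with the kidney level and 6 with the macrophage level as a covariate, 0 without the pair of animals (5133 at an unadjusted p of 0.05), 241 at an adjusted p of 0.1, and 12 to 97 without 1 animal (12 without control 1, 13 without exposed animal 5, 18 without control 3, 23 without control 2, 24 and 29 without exposed animals 2 and 3, 43 without control 4). The causes were not tested. Same-numbered animals deviated together at r from -0.26 to 0.15, and 0 of 5 controls correlated best with its own number. Deviations from the means of groups of 5 cannot settle whether the numbers pair the animals. With the replicate block no member was called. The kidney level difference of 0.63 ran from 0.42 to 0.80 without 1 animal, the latter, without control 4, at an exact permutation p of 0.0238.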

Other observations

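A further probe set is annotated to both Pnp2 and Pnp and so is outside the members. It lay at 11.03 to 11.39 in controls and 11.31 to 11.64 with arsenic, with means of 11.19 ± 0.15 and 11.51 ± 0.14 (SD, n = 5 each). The log2 difference of 0.32 (SE 0.10, limma adjusted p = 0.173) was near the 0.25 of the Pnp probe set.

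Adenosine deaminase (Ada), which clears the adenosine that Ahcy releases and belongs to the purine list, had the largest difference of the 77 pathway genes and is named because of that value. It was at 6.60, 6.50, 6.05, 5.45 and 6.20 in controls 1 to 5 and at 6.74, 7.45, 6.59, 6.69 and 7.80 in exposed animals 1 to 5. Exposed animals 2 and 5, the highest, were also the highest for Gnmt and As3mt, and exposed animal 3 lay just under control 1, so the groups overlapped. The log2 difference was 0.89 (SE 0.28, limma adjusted p = 0.178). Choline dehydrogenase (Chdh), which makes the betaine that Bhmt uses, was at 4.49 to 5.39 in controls and 5.28 to 6.22 with arsenic, with a difference of 0.71 (SE 0.21, adjusted p = 0.161); exposed animal 4, the highest, was also the highest in kidney markers, whose part was not tested. It too is named because of its value.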
